A study of Danio rerio with 8 samples.

Results

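Radial glia sorted from the adult zebrafish brain were compared with the remaining sorted cells 24 hours after an injection of interleukin-4 (IL4). The comparison takes 4 of the 8 libraries of the series, chosen by their labels, 2 of GFP-positive and 2 of GFP-negative cells, and it covers all 20508 of 31388 genes that passed a filter on low counts. All fish were 6 months old (6 mpf) and of the line Tg(her4.1:EGFP), in which the promoter of her4.1, a Notch-responsive gene of radial glia, drives enhanced GFP. That promoter therefore sets which cells the positive gate holds, and the GFP-negative fraction is all other sorted cells. Brains received IL4 peptide or, in the other 4 libraries, phosphate-buffered saline (PBS), and were dissected at 24 hours post injection (24 hpi), dissociated with an enzyme kit and sorted by flow cytometry. RNA was copied from a poly-dT primer with template switching, and the cDNA was amplified before sequencing. The title of the series puts its question in terms of IL4, serotonin, neurotrophins and the plasticity of neural stem cells. The labels do not say how many fish a library holds or whether the 2 replicates are separate fish, and p-values then describe only the spread between these libraries, which may be technical.

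Radial glia line the ventricles of the fish brain and send a long process to its surface. They persist into adulthood, where they act as neural stem cells and also do much of what astrocytes do in mammals, such as clearing glutamate, buffering potassium and carrying out steroid synthesis. Notch signalling, read out through her genes, is known to hold many of them out of division. IL4 is a cytokine of type 2 immunity that signals through a receptor pair, JAK kinases and the transcription factor STAT6.

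Levels are CPM (read counts scaled to library size) after TMM scaling, and for each gene the 2 GFP-positive libraries are given first and the 2 GFP-negative libraries second. Differences are log2 fold changes of GFP-positive over GFP-negative ± standard error (SE), with 2 libraries on each side. A gene is called higher or lower where the quasi-likelihood test of edgeR gave an adjusted p under 0.05. The SE was derived from that test, as the absolute difference divided by the square root of its F statistic. It rests on the fit to all 8 libraries and is not reliable for genes with very few counts. The 4 libraries held 19242851 to 20859753 counts, and the 8 held up to 26582271. Of all genes tested, 66.6% passed after IL4, 32.4% being higher and 34.3% lower, and the median difference was -0.05. A stricter count takes genes that passed and also differed by at least 4-fold. That rule was met by 1582 genes (7.71%) that were higher and by 3119 (15.2%) that were lower. The scaling matters here, since library totals in place of TMM moved the median of all genes by -0.44 and gave 4332 higher and 9833 lower genes. The counts over gene lists below are set beside these percentages. A zebrafish name given beside a human symbol is that of RefSeq for the chromosome, used where several genes share a symbol. In bulk libraries, fewer cells of a type and less RNA per cell cannot be told apart.

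The sort was checked on the gene behind the reporter. her4.1 (GRCz10 chromosome 23, 21526006 to 21527063) stood at 988 and 964 CPM against 10.5 and 8.92 CPM, a difference of 6.65 ± 0.07 (adjusted p = 1.91e-24). The 2 positive libraries were close to each other and far above the negative ones. Its tandem neighbours her4.2, her4.3, her4.4 and her4.5 differed by 5.76 ± 0.05, 6.23 ± 0.09, 6.19 ± 0.07 and 4.93 ± 0.07. The her4 genes are near-identical copies on chromosome 23, and the handling of reads that align to several places is not given in the sources used here, so the split of reads among them is uncertain. Since the reporter selected the cells, these values describe the sort and are no finding.

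**Figure D1:**
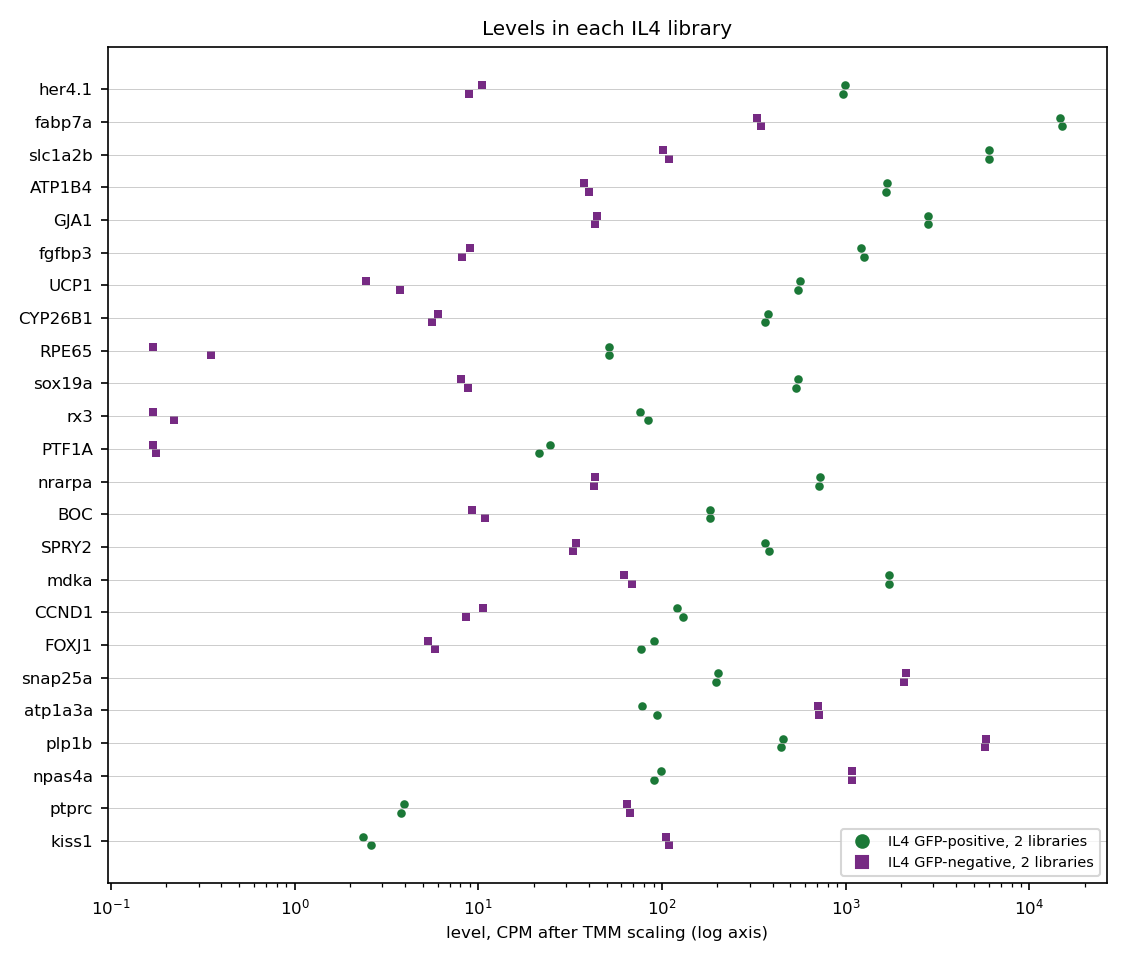
Levels of 24 genes in each of the 4 IL4 libraries (x axis, CPM after TMM scaling, log axis; circles, 2 GFP-positive libraries; squares, 2 GFP-negative libraries). For each gene shown, the 2 libraries of a fraction sit close together and the fractions do not overlap, from her4.1 at 988 and 964 against 10.5 and 8.92 CPM to kiss1 at 2.35 and 2.60 against 106 and 109 CPM. The share of all genes tested that do not overlap was not counted.

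The label of the positive fraction as radial glia was checked against marker genes, and all but 1 were higher in it. Of 24 radial glial genes tested, 23 were higher and 1 was lower (32.4% and 34.3% of all genes), with a median of 4.81. By at least 4-fold 19 were higher, against 7.71% of all genes. The list includes the 5 her4 genes just given. fabp7a (symbol FABP7), a brain fatty acid-binding protein, stood at 14722 and 14981 CPM against 329.8 and 347 CPM. slc1a2b (SLC1A2), a glutamate transporter, stood at 5999.5 and 5994 CPM against 101 and 109 CPM. mfge8a, which bridges phagocytes to dying cells, stood at 922 and 907 CPM against 13.9 and 15.6 CPM, a difference of 5.95 ± 0.06 (adjusted p = 1.91e-24). None of these markers overlapped between the fractions, but neither did 61 of the 67 axon guidance genes described below. Non-overlap was counted within lists only, and its share over all genes tested was not counted. Non-overlap of 2 libraries with 2 therefore says little about a marker. her15.1, another Notch target of the her family, was higher by 4.69 ± 0.07, the RNA-binding progenitor gene MSI1 by 4.505 ± 0.06 and the vimentin gene of chromosome 2 by 3.98 ± 0.10. The intermediate filament gene nes was higher by 1.202 ± 0.10 and the vimentin gene of chromosome 24 by 1.41 ± 0.06. The member that was lower was sox9b (SOX9 on chromosome 3), at 12.9 and 13.7 CPM against 26 and 24 CPM, a difference of -0.91 ± 0.14 (adjusted p = 9.54e-06). SOX9 proteins are transcription factors of glia, and its paralogue sox9a is described with the SOX genes below.

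Genes of ciliated ependymal cells, which line the ventricle beside radial glia, were also mostly higher. Of 14 ependymal and cilia genes tested, 11 were higher, 0 lower and 3 did not pass (median 2.34), with 10 higher and 0 lower by at least 4-fold. FOXJ1, the master regulator of motile cilia, stood at 90.4 and 77.1 CPM against 5.30 and 5.80 CPM, a difference of 3.92 ± 0.13 (adjusted p = 2.79e-16). SPAG6, of the ciliary central pair, was higher by 3.38 ± 0.22 and the outer arm dynein gene DNAI1 (ENSDARG00000038788) by 3.23 ± 0.35. Summed over the list the level was 281 to 310.5 CPM against 46.8 to 54.5 CPM, and the part of ciliated cells in the other results was not tested.

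Markers of oligodendrocyte precursors were split. Of 8 precursor genes tested, 4 were higher, 2 lower and 2 did not pass (median 0.76). ptprz1b (PTPRZ1 on chromosome 4), a receptor phosphatase, was higher by 1.67 ± 0.04, NKX2-2, a transcription factor of the lineage, by 1.598 ± 0.11 and olig1 by 1.23 ± 0.11. SOX10, which oligodendrocytes keep at all stages, was lower at 47.2 and 47.7 CPM against 134 and 127 CPM. The precursor marker CSPG4 was higher by 1.26 ± 0.37, at 2.73 and 3.98 CPM against 1.74 and 1.05 CPM. PDGFRA and GPR17, also markers of precursors, did not pass. Each of CSPG4, PDGFRA and GPR17 had a mean under 5 CPM in both fractions.

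Markers of other cell types were mostly lower in GFP-positive libraries. Of 17 neuronal genes tested, 0 were higher, 17 lower and 0 did not pass (median -2.72), the vesicle fusion gene snap25a standing at 201 and 196 CPM against 2131 and 2079.8 CPM. nefma, a neurofilament gene, was lower with a difference of -3.63 ± 0.16 and the synaptic vesicle gene sypb with a difference of -3.35 ± 0.08. Genes of transmitter identity were also mostly lower. Of 8 glutamatergic genes 6 were lower, among them the vesicular transporter slc17a7a (SLC17A7) with a difference of -4.47 ± 0.28, and 1, TBR1, was higher by 1.98 ± 0.20. Of 8 GABA and glycine genes 7 were lower, GAD2 at 17.5 and 19.1 CPM against 220.1 and 218 CPM, and 1, the interneuron progenitor gene dlx2a (DLX2), was higher by 0.88 ± 0.13. All 11 monoamine and cholinergic genes were lower, the dopamine synthesis gene th2 with a difference of -2.85 ± 0.22.

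Myelin genes were lower with 1 exception. Of 12 oligodendrocyte genes tested, 1 was higher, 11 lower and 0 did not pass (median -3.00). mbpa, a myelin basic protein gene, stood at 509.8 and 513 CPM against 6367 and 6390.4 CPM. MYRF, the transcription factor that drives myelination, was lower with a difference of -3.92 ± 0.14. The exception was cnp, a phosphodiesterase of myelin, higher at 149 and 141 CPM against 74.8 and 75.2 CPM.

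Immune markers were mostly lower. Of 23 microglial and macrophage genes tested, 1 was higher, 21 lower and 1 did not pass (median -3.44). The pore-forming gene of macrophages MPEG1 (ENSDARG00000055290) stood at 3.44 and 3.04 CPM against 58.6 and 55 CPM and the leukocyte phosphatase ptprc at 3.93 and 3.81 CPM against 64.2 and 66.6 CPM. Of 17 lymphocyte genes 15 were lower, and 1, the B cell receptor chain cd79a, was higher by 2.41 ± 0.39. It stood at 4.64 and 4.58 CPM against 0.721 and 1.01 CPM, under 5 CPM in both fractions, and its sort difference after PBS (0.69 ± 0.41) did not pass. In the same list ighm, the heavy chain of immunoglobulin M, stood at 0.164 and 0.221 CPM against 25.8 and 23.7 CPM. Of 6 neutrophil genes 5 were lower, the lysozyme gene lyz at 1.58 and 0.828 CPM against 42.1 and 40.0 CPM. The sixth, nccrp1, was higher by 0.33 ± 0.09, and under library totals it turned to -0.11 and did not pass.

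Blood and vessel markers were mostly lower. Of 8 erythrocyte genes 6 were lower, and hbaa2 and gata1a, a haemoglobin gene and the main regulator of red cells, had 0 counts in both GFP-positive libraries. Their 80 and 25 counts in the GFP-negative libraries put them at least 20.96-fold and 6.55-fold lower, with the bound set at 3 counts over the group. cahz, a carbonic anhydrase, was higher at 295 and 294 CPM against 157 and 151 CPM. Of 21 endothelial genes tested, 2 were higher, 18 lower and 1 did not pass (median -1.97). pecam1a, an adhesion gene of vessels, was lower with a difference of -4.52 ± 0.31, and mfsd2aa (MFSD2A), the lipid transporter of the blood-brain barrier, was higher by 1.04 ± 0.11. Of 18 mural and fibroblast genes tested, 6 were higher, 10 lower and 2 did not pass (median -1.13). In that list the proteoglycan gene DCN stood at 371 and 367 CPM against 24.12 and 23.7 CPM and NOTCH3, a Notch receptor, at 64.3 and 64 CPM against 4.75 and 6.07 CPM, while myh11a (MYH11), a smooth muscle myosin, was lower with a difference of -3.08 ± 0.23.

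Transcripts of the other types were present in the positive libraries as well, and most sums were lower there. Those of erythrocyte, mural, oligodendrocyte precursor and, as given above, ependymal genes were higher. Precursor genes summed to 802.5 to 809.7 CPM against 462.9 to 463.2 CPM, ptprz1b alone standing at 625 and 618 CPM against 194 and 196 CPM. Summed over its list, the neuronal level was 1429 to 1459.6 CPM against 7528 to 7605 CPM, and the oligodendrocyte level 1784 to 1804 CPM against 20063 to 20242 CPM. Microglial genes summed to 466 to 474 CPM against 2937 to 2996 CPM, and lymphocyte genes to 13.5 to 14.8 CPM against 205 to 210.3 CPM. Endothelial genes summed to 85.4 to 88.8 CPM against 137 to 138 CPM. For neutrophils and mural cells the sums were 84.8 to 88.2 CPM against 399 to 411 CPM and 582 to 609 CPM against 186 to 187 CPM, the second carried by DCN. Erythrocyte genes summed to 296 CPM in each positive library against 168 to 178 CPM, carried by cahz. Outside hbaa2, gata1a and the vesicular transporter gene SLC17A8 no marker of these lists that was tested had 0 counts in both positive libraries. The part of such cells or of free RNA in the results below was not tested.

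**Figure D2:**
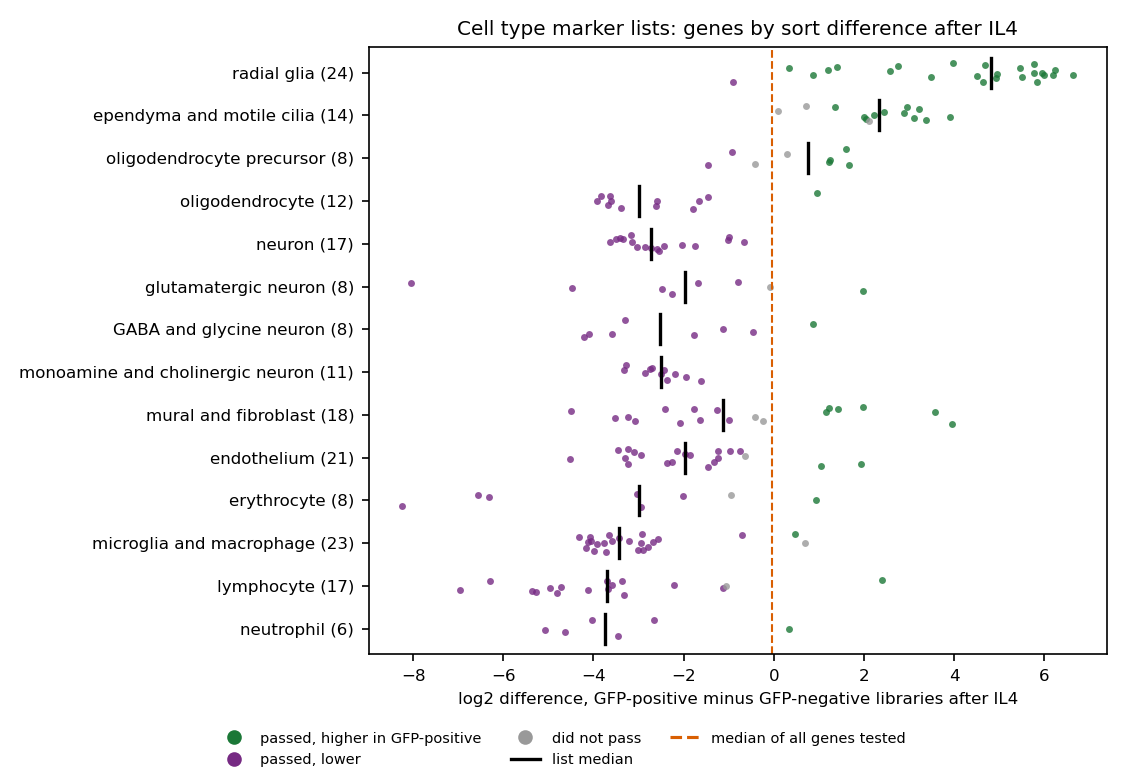
Difference of GFP-positive minus GFP-negative after IL4 (x axis, log2) for each tested gene of 14 lists of cell type markers (rows, with the number of genes tested). Points are genes, green where higher, purple where lower and grey where the test was not passed, black bars are list medians and the dashed line is the median of all genes. Radial glial and ependymal medians lie at 4.81 and 2.34, and those of neurons, oligodendrocytes and microglia at -2.72, -3.00 and -3.44.

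Among genes with a symbol that reached 10 CPM in one fraction, the largest difference towards GFP-positive cells was that of rx3 (GRCz10 chromosome 21, 10663526 to 10666595), a homeobox gene of the eye field and hypothalamus. It stood at 76.2 and 84 CPM against 0.170 and 0.220 CPM, a difference of 8.65 ± 0.20 (adjusted p = 1.28e-18). UCP1 (chromosome 1, 52739716 to 52754176), a mitochondrial carrier that uncouples respiration in mammals, stood at 562 and 547 CPM against 2.46 and 3.74 CPM. fgfbp3 (chromosome 17, 23278904 to 23282297), which releases FGFs from the matrix, stood at 1206 and 1255 CPM against 8.99 and 8.18 CPM. Their low levels in the negative libraries and the lack of overlap follow from the choice of the largest differences and are no further finding. The small GTPase gene arf4b stood at 944 and 1079 CPM against 6.15 and 6.99 CPM, the methionine sulfoxide reductase gene msrb2 at 148 and 148 CPM against 1.06 and 0.659 CPM and the small heat shock gene hspb15 at 357 and 355 CPM against 2.84 and 3.65 CPM. MLC1, a membrane protein of astrocyte endfeet in mammals, stood at 603 and 589 CPM against 5.47 and 5.63 CPM. PTF1A, a transcription factor of inhibitory neuron progenitors in the hindbrain, was higher by 7.01 ± 0.31, the aggrecan gene acanb by 6.79 ± 0.46 and PAMR1 on chromosome 7 by 6.84 ± 0.18. Of genes with no descriptive name, zgc:110286 was higher by 7.53 ± 0.09 and si:ch211-214j24.14 by 7.64 ± 0.26.

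The largest differences the other way rested on a handful of counts in GFP-positive cells. PMCH, the precursor of melanin-concentrating hormone, had 2 counts against 779, a ratio of 306 after scaling (95% counting interval 84.5 to 2532). npvf, the precursor of RFamide peptides of the hypothalamus, had 2 counts against 657, a ratio of 258 after scaling (95% counting interval 71.2 to 2136). icn2, an S100-like calcium-binding gene, had 2 counts against 568, a ratio of 223 after scaling (95% counting interval 61.5 to 1847). The haemoglobin gene HBE1 (ENSDARG00000089087) had 3 counts against 717, a ratio of 188 after scaling (95% counting interval 64 to 913). These 4 are ratios of counts because the positive libraries held so few reads. The keratin gene krt97 stood at 0.164 and 0.110 CPM against 13.6 and 15.6 CPM, a difference of -6.67 ± 0.38 (adjusted p = 3.01e-12). The water and glycerol channel AQP3 (chromosome 5) stood at 0 and 0.276 CPM against 13.6 and 13.8 CPM, and CXCR3, a chemokine receptor of lymphocytes, at 0 and 0.331 CPM against 14.8 and 17.3 CPM. Further genes of immune cells were the chemokine ccl34b.4 at -5.79 ± 0.30, the adaptor sh3bp2 at -5.80 ± 0.37 and the Ras regulator rasal3 at -5.77 ± 0.39.

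Ranked by level per kilobase, a scale on which genes can be compared, the fractions shared their first transcript and then differed. In the positive fraction malat1, a nuclear non-coding RNA, reached 31013 CPM per kb, followed by fabp7a at 17309 and FOS at 6766. glula (GLUL), glutamine synthetase, reached 5202 and junbb (JUNB on chromosome 3) 4036 CPM per kb. In the negative fraction malat1 (18738) was followed by cd59a, a complement inhibitor, at 8603, and by stmn1b (STMN1), a tubulin regulator, at 3241. Next came tmsb4x, an actin-binding peptide gene, at 2721 and plp1b at 2691 CPM per kb. malat1 alone took 20.02% and 20.5% of counts in the positive and 16.7% and 16.5% in the negative libraries. Reads of the mitochondrial genome took 5.96% and 6.28% against 3.27% and 3.38%. The part of these shares in the other results was not tested.

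Transporters and enzymes that clear glutamate and GABA were mostly higher. Of 22 uptake genes tested, 15 were higher, 4 lower and 3 did not pass (median 1.33). Besides slc1a2b, slc1a3b (SLC1A3), the second glial glutamate transporter, stood at 706 and 692 CPM against 14.4 and 16.4 CPM. slc7a10b (SLC7A10), an exchanger of serine and small neutral amino acids, stood at 189 and 189 CPM against 4.28 and 4.396 CPM. SLC6A11, the glial GABA transporter, stood at 294 and 302 CPM against 8.31 and 9.98 CPM. In these 3 genes the negative libraries were far below the positive ones. glula was higher by 2.58 ± 0.03, whereas SLC38A5, a glutamine transporter, was lower with a difference of -3.93 ± 0.30.

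Water channels, ion pumps and gap junctions were divided between the fractions. Of 27 ion, water and junction genes tested, 11 were higher, 14 lower and 2 did not pass (median -0.52). AQP1 (ENSDARG00000023713), a water channel, stood at 474 and 468 CPM against 5.68 and 5.58 CPM. The gap junction gene GJA1 stood at 2797 and 2823 CPM against 44.4 and 43.3 CPM. Both were higher, as was ATP1B4, a beta-type subunit gene of the sodium-potassium pump family, by 5.43 ± 0.05. On the other side the pump's beta subunit atp1b1b was lower at 61.2 and 58.6 CPM against 683 and 687 CPM, the neuronal chloride exporter slc12a5b with a difference of -3.09 ± 0.25 and the carbonic anhydrase ca2 with a difference of -3.97 ± 0.18.

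Genes that make, bind and break down retinoids were higher more often than lower in GFP-positive cells. Of 35 retinoid genes tested, 20 were higher, 8 lower and 7 did not pass (median 1.51), with 17 higher and 3 lower by at least 4-fold. The isomerohydrolase RPE65 had 2 genes on chromosome 8 among them. The copy ENSDARG00000054420 stood at 51.3 and 51.7 CPM against 0.170 and 0.352 CPM, and ENSDARG00000094752 at 24.4 and 24.2 CPM against 0.0424 and 0.396 CPM. Reads may be split between such copies. lratb.1 and lratb.2, acyltransferases that store retinol, were higher by 6.69 ± 0.09 and 6.44 ± 0.30. CYP26B1, which degrades retinoic acid, stood at 378 and 365 CPM against 6.06 and 5.58 CPM. RBP4, the carrier of retinol in blood, was lower at 5.63 and 4.86 CPM against 31.5 and 29.5 CPM, and the nuclear receptor gene rxrga with a difference of -1.20 ± 0.16.

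Glycolysis and fatty acid genes were split, with large differences at both ends. Of 51 glycolysis, glycogen and lactate genes tested, 18 were higher, 21 lower and 12 did not pass (median 0.10), a median that turned to -0.34 under library totals. eno1b (ENO1 on chromosome 6), an enolase, stood at 635 and 611 CPM against 31.1 and 28.5 CPM. The neuronal enolase eno2 stood at 27.3 and 32.9 CPM against 266 and 269 CPM, and the neuronal glucose transporter slc2a3a was lower with a difference of -3.01 ± 0.09. PFKFB3, which activates glycolysis, was higher by 1.66 ± 0.05, and ppp1r3cb (PPP1R3C), a glycogen-targeting subunit, by 2.06 ± 0.09. Of 44 fatty acid genes tested, 22 were higher, 15 lower and 7 did not pass (median 0.42), and under library totals this median was -0.01. ELOVL2, which extends polyunsaturated fatty acids, stood at 89.2 and 91.9 CPM against 1.57 and 1.71 CPM, and hadhaa, of mitochondrial beta-oxidation, was higher by 2.67 ± 0.11. The nuclear coactivator PPARGC1A was lower with a difference of -4.03 ± 0.38, the elongase ELOVL7 with a difference of -3.67 ± 0.11 and FABP2 with a difference of -3.62 ± 0.12.

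Steroid and thyroid hormone genes gave no common direction with TMM scaling. Of 25 hormone genes tested, 8 were higher, 12 lower and 5 did not pass (median -0.19). Under library totals 4 were higher and 14 lower (median -0.63). The deiodinases DIO1 and DIO2, which activate thyroid hormone, were higher by 2.52 ± 0.13 and 1.45 ± 0.08. The thyroid hormone transporter SLCO1C1 was lower with a difference of -2.89 ± 0.24 and the thyroid receptor THRB with a difference of -1.24 ± 0.10.

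Notch pathway genes were mostly higher in GFP-positive cells. Of 39 Notch genes tested, 28 were higher, 7 lower and 4 did not pass (median 2.63), with 21 higher and 1 lower by at least 4-fold. The list shares her4.1 and its copies with the sort, and these describe the gate. heyl, a Hey-family target, had 220 counts against 2, a ratio of 140.0 after scaling (95% counting interval 38.3 to 1163). nrarpa (NRARP), a feedback inhibitor of the pathway, stood at 723 and 713 CPM against 43.1 and 42.5 CPM. The Fringe glycosyltransferase mfng was lower at 0.492 and 0.387 CPM against 18.8 and 19.1 CPM, and NUMB, an inhibitor of Notch that neurons inherit, with a difference of -1.20 ± 0.14. RFNG was lower with a difference of -0.88 ± 0.24, a call that ended without IL4 GFP-positive replicate 1 (-0.46).

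No Hedgehog gene was lower with TMM scaling, and 1 was lower under library totals. Of 19 Hedgehog genes tested, 17 were higher, 0 lower and 2 did not pass (median 3.06), and 14 were higher by at least 4-fold. The co-receptor BOC stood at 183 and 184 CPM against 9.24 and 10.9 CPM. The signal transducer SMO stood at 34.8 and 40.7 CPM against 1.99 and 1.71 CPM. GLI1, a target and effector of the pathway, stood at 19.5 and 22 CPM against 1.02 and 0.835 CPM. No library of one fraction overlapped the other in these genes, which also held for most genes of every list. GAS1 (ENSDARG00000067984), another co-receptor, was higher by 4.15 ± 0.14. DISP1 and the ligand gene ihha did not pass, the latter with 2 counts against 15, a ratio of 5.89 after scaling (95% counting interval 1.37 to 53.1).

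Genes of BMP and TGF-beta signalling, of FGF and of Wnt were higher more often than lower, with ligands and antagonists on both sides. Of 53 BMP and TGF-beta genes tested, 25 were higher, 9 lower and 19 did not pass (median 0.64). Under library totals 21 were higher and 17 lower (median 0.20). The BMP antagonist nog2 stood at 88.8 and 72.6 CPM against 2.46 and 1.89 CPM and the target ID1 at 267 and 272 CPM against 11.3 and 10.2 CPM, while SMAD1, which carries the signal, was higher by 4.16 ± 0.11. The activin subunit gene inhbab (INHBA) was lower with a difference of -4.12 ± 0.22 and the receptor gene tgfbr2a (TGFBR2) with a difference of -4.95 ± 0.46. ID4, an inhibitor of bHLH factors, was lower at 33.3 and 31.5 CPM against 101 and 96.4 CPM.

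Of 38 FGF genes tested, 21 were higher, 11 lower and 6 did not pass (median 0.36), a median that was -0.08 under library totals. The receptor FGFR2 stood at 139.7 and 143 CPM against 5.26 and 5.05 CPM, the decoy receptor FGFRL1 was higher by 4.87 ± 0.14 and the feedback inhibitor SPRY2 stood at 365 and 381 CPM against 34.2 and 32.6 CPM. The ligand gene fgf20a (FGF20) was lower at 0.164 and 0.110 CPM against 7.80 and 8.44 CPM and the transcription factor ETV1 with a difference of -3.17 ± 0.08. Of 53 Wnt genes tested, 28 were higher, 12 lower and 13 did not pass (median 0.74). The ligands WNT7B, WNT16 and WNT4 were higher by 4.37 ± 0.15, 3.92 ± 0.13 and 3.69 ± 0.24, and the secreted inhibitor WIF1 by 3.70 ± 0.17. The antagonists SFRP2, dkk1b and dkk2 were lower, with differences of -4.17 ± 0.28, -2.78 ± 0.18 and -3.78 ± 0.40.

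The pathway of the injected cytokine was split. Of 26 IL4 pathway genes tested, 10 were higher, 13 lower and 3 did not pass (median -0.43). Under library totals 7 were higher and 15 lower (median -0.86). Ligand genes were lower, il4 at 0.819 and 1.21 CPM against 7.88 and 8.09 CPM and il13 at 0.492 and 0.166 CPM against 11.5 and 9.54 CPM. GATA3, the type 2 regulator that neurons also express, was lower at 7.76 and 6.35 CPM against 54.1 and 61.4 CPM. Among feedback inhibitors socs3b (SOCS3 on chromosome 12) stood at 281 and 289 CPM against 40.0 and 38.1 CPM and socs3a (SOCS3 on chromosome 3) at 20.3 and 21.6 CPM against 1.87 and 2.51 CPM. CISH, another of that family, stood at 62.5 and 56.7 CPM against 20.7 and 19.1 CPM, and all 3 were higher. JAK2 and IRS1, which carry the signal on, were higher by 0.34 ± 0.12 and 0.98 ± 0.08. JAK2 turned to -0.10 under library totals, and it did not pass when IL4 GFP-negative replicate 1 (0.35), replicate 2 (0.33) or IL4 GFP-positive replicate 2 (0.30) was left out. By contrast jak2a, TYK2 and IRS2 on chromosome 1 were lower, with differences of -1.27 ± 0.185, -1.305 ± 0.31 and -0.32 ± 0.13. JAK1 (-0.02 ± 0.07) and IRS2 on chromosome 9 (0.04 ± 0.07) did not pass. Lower as well were jak3 and the common gamma chain gene il2rgb, used by lymphocytes, with differences of -4.99 ± 0.47 and -3.98 ± 0.58. The other common gamma chain gene, il2rga, was also lower. It had 2 counts against 112, a ratio of 44.0 after scaling (95% counting interval 11.9 to 368). il13ra1, a receptor chain shared by IL4 and IL13, stood at 66.4 and 66.7 CPM against 21.6 and 19.6 CPM. PTPN6, a phosphatase of blood cells that dampens cytokine receptors, was lower with a difference of -4.12 ± 0.16.

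Secreted growth factors were higher more often than lower. Of 38 growth factor genes tested, 23 were higher, 10 lower and 5 did not pass (median 1.497), with 16 higher and 6 lower by at least 4-fold. mdka (MDK on chromosome 7), a midkine gene, stood at 1729 and 1712 CPM against 62.3 and 68.7 CPM. Its relative PTN stood at 286 and 267 CPM against 6.15 and 5.93 CPM. cntf, a ciliary neurotrophic factor gene, was higher by 4.51 ± 0.34 and the vessel ligand ANGPT1 by 4.22 ± 0.17. cxcl12b, a chemokine, was lower with a difference of -0.66 ± 0.14 and igfbp5a (IGFBP5 on chromosome 6) with a difference of -3.02 ± 0.34.

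**Figure D3:**
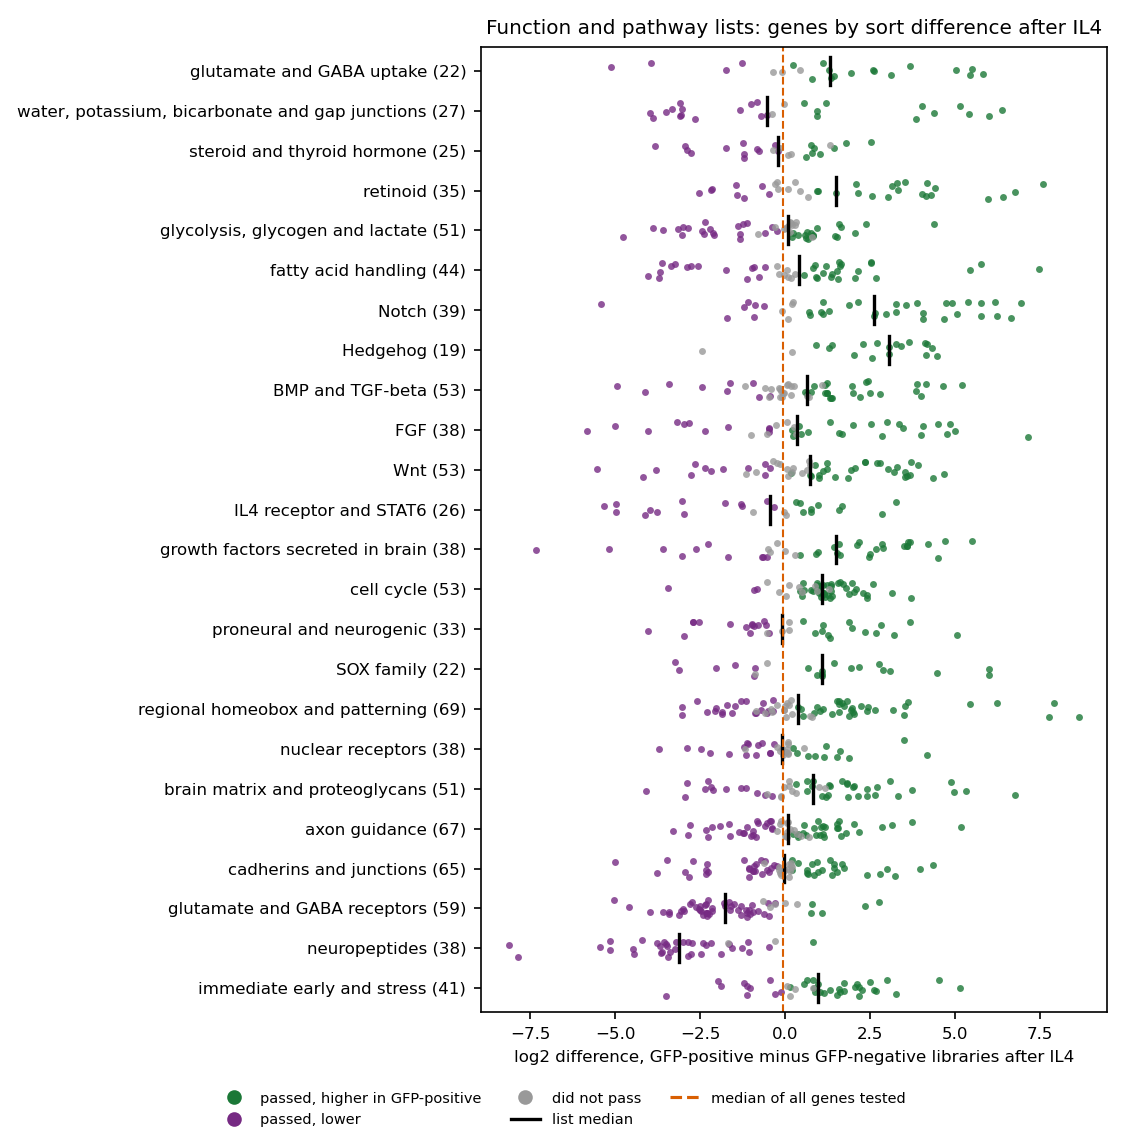
Difference of GFP-positive minus GFP-negative after IL4 (x axis, log2) for each tested gene of 24 function and pathway lists (rows, with the number of genes tested). Points are genes, green where higher, purple where lower and grey where the test was not passed, black bars are list medians and the dashed line is the median of all genes. The Hedgehog and Notch medians lie at 3.06 and 2.63, those of transmitter receptors and neuropeptides at -1.78 and -3.11.

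SOX transcription factors were higher more often than lower. Of 22 SOX genes tested, 14 were higher, 6 lower and 2 did not pass (median 1.09). sox19a, a B1 gene of neural progenitors, stood at 548 and 535 CPM against 8.10 and 8.84 CPM. sox19b stood at 22.1 and 17.8 CPM against 0.127 and 0.484 CPM, and SOX3, also of group B1, at 356 and 341 CPM against 16.1 and 15 CPM. sox9a (SOX9 on chromosome 12) was higher by 3.09 ± 0.28. sox12, a neuronal group C gene, was lower at 13.8 and 11.7 CPM against 51.5 and 52.2 CPM and SOX7, of vessels, with a difference of -3.11 ± 0.19.

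Genes that mark brain regions were split. Of 69 regional genes tested, 33 were higher, 21 lower and 15 did not pass (median 0.37), with a median of -0.07 under library totals. dbx1b (DBX1), of spinal and hindbrain progenitors, had 220 counts against 1, a ratio of 279.9 after scaling (95% counting interval 49.7 to 11106). GSX2, of the ventral telencephalon, stood at 46.4 and 40.0 CPM against 0.678 and 0.440 CPM, and pax3a (PAX3), of the dorsal neural tube, was higher by 5.46 ± 0.29. barhl1a, a gene of neurons of the hindbrain and diencephalon, was lower at 9.45 and 9.55 CPM against 77.8 and 77.6 CPM and GATA2 with a difference of -2.59 ± 0.32. Of 38 nuclear receptor genes tested, 11 were higher, 15 lower and 12 did not pass (median -0.08). Under library totals 6 of these were higher and 22 lower (median -0.52). NR2E1, which keeps neural stem cells undifferentiated in mice, stood at 64.1 and 64 CPM against 5.89 and 5.45 CPM, and nr2f1b (NR2F1), a COUP receptor, at 39.1 and 33.4 CPM against 2.46 and 1.54 CPM. The oestrogen-related receptor ESRRG was lower with a difference of -2.87 ± 0.18 and pparg, a fatty acid sensor, with a difference of -3.70 ± 0.50.

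Cell cycle genes were mostly higher in GFP-positive cells. Of 53 cell cycle genes tested, 41 were higher, 3 lower and 9 did not pass (median 1.11), with 8 higher and 1 lower by at least 4-fold. Under library totals 30 were higher and 6 lower (median 0.67). CCND1, a cyclin of G1, stood at 121 and 130.5 CPM against 10.6 and 8.53 CPM. The replication helicase genes MCM5 and MCM2 stood at 36.9 and 34.7 CPM against 4.54 and 3.47 CPM and 65.5 and 69.6 CPM against 11 and 14.2 CPM. cdkn1a, an inhibitor of the cycle, was also higher, by 2.58 ± 0.20. cdkn1cb, another inhibitor, was lower with a difference of -0.90 ± 0.16. The lower value of CCNE2 (-0.82 ± 0.28) did not pass when IL4 GFP-negative replicate 1 (-0.83), replicate 2 (-0.81) or IL4 GFP-positive replicate 2 (-0.65) was left out.

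Proneural and neurogenic genes were split. Of 33 proneural and neurogenic genes tested, 14 were higher, 15 lower and 4 did not pass (median -0.08). ascl1a, which starts neurogenesis, stood at 121 and 122 CPM against 14.7 and 11.7 CPM and its paralogue ascl1b was higher by 3.69 ± 0.33. BTG2, an antiproliferative gene of neurogenic divisions, stood at 2811 and 2769 CPM against 439 and 434 CPM. NEUROD2 and SCRT1, of differentiating neurons, were lower at 6.83 and 7.79 CPM against 49.9 and 45.8 CPM and 10.4 and 11 CPM against 83.9 and 85.9 CPM. The chemokine receptor gene cxcr4b (CXCR4) was lower with a difference of -4.04 ± 0.14.

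Genes of the brain matrix were higher more often than lower. Of 51 matrix genes tested, 28 were higher, 13 lower and 10 did not pass (median 0.83), with 14 higher and 7 lower by at least 4-fold. Under library totals 22 were higher and 17 lower (median 0.39). HAPLN4, a link protein of perineuronal matrix, stood at 119.7 and 125 CPM against 3.35 and 4.48 CPM, and ptprz1a (PTPRZ1 on chromosome 25), paralogue of the precursor gene above, at 183 and 184 CPM against 6.83 and 5.45 CPM. HAPLN2, a link protein of myelinated axons, was lower at 8.85 and 6.30 CPM against 33.8 and 38.4 CPM, and the thrombospondin gene thbs4b (THBS4) with a difference of -4.08 ± 0.45.

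Guidance and adhesion genes had no common direction with TMM scaling. Of 67 guidance genes tested, 28 were higher, 25 lower and 14 did not pass (median 0.08), and the median was -0.36 under library totals. robo4, a Slit receptor, stood at 75.5 and 79.4 CPM against 1.74 and 2.55 CPM, and ntn1b (NTN1), a netrin ligand, at 122 and 138 CPM against 8.86 and 10.7 CPM. plxnb2b, a semaphorin receptor, was lower at 6.61 and 7.45 CPM against 66.8 and 70.8 CPM and sema7a with a difference of -2.87 ± 0.29. Of 65 cadherin and junction genes tested, 24 were higher, 27 lower and 14 did not pass (median -0.03). Under library totals 18 of them were higher and 39 lower (median -0.47). celsr1b, of planar polarity, stood at 19.2 and 20.9 CPM against 0.975 and 0.967 CPM, the polarity gene pard3bb at 61.8 and 63.7 CPM against 4.58 and 3.38 CPM and the atypical cadherin FAT4 at 28.8 and 31.5 CPM against 3.05 and 3.34 CPM. FAT2, a cadherin of cerebellar granule cells in mammals, was lower at 3.66 and 3.31 CPM against 110.2 and 115 CPM and cdh1, of epithelia, with a difference of -3.76 ± 0.25.

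Receptors for glutamate and GABA were mostly lower, with 2 metabotropic receptors as the largest exceptions. Of 59 receptor genes tested, 5 were higher, 49 lower and 5 did not pass (median -1.78). grm2b (GRM2 on chromosome 11) stood at 219.8 and 229 CPM against 31.4 and 33.9 CPM and GRM3 at 55.7 and 48.2 CPM against 9.41 and 10.9 CPM, both of the group that inhibits cyclic AMP. grin2ca (GRIN2C), an NMDA receptor subunit, was lower with a difference of -4.60 ± 0.19. The higher values of GRIK5 (0.77 ± 0.20) and grin2da (0.80 ± 0.18) did not pass under library totals (0.33 and 0.37), nor did GRIK5 without IL4 GFP-negative replicate 1 (0.53).

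Neuropeptide genes were lower with few exceptions. Of 38 neuropeptide genes tested, 1 was higher, 35 lower and 2 did not pass (median -3.11). kiss1, the kisspeptin of the habenula, stood at 2.35 and 2.60 CPM against 106 and 109 CPM. agrp, of hypothalamic feeding neurons, stood at 0.273 and 0.221 CPM against 8.69 and 9.23 CPM, and NPY, also of feeding circuits and of interneurons, at 5.63 and 5.52 CPM against 106 and 102 CPM. cart4, a CART peptide gene, was higher by 0.81 ± 0.27, a call that ended under library totals (0.38) and without IL4 GFP-negative replicate 2 (0.60) or IL4 GFP-positive replicate 1 (0.71).

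Immediate early and stress genes were high in both fractions and mostly higher in the positive one. This list was put together after values had been seen, so it describes and does not test. Of 41 immediate early and stress genes tested, 27 were higher, 10 lower and 4 did not pass (median 0.96), and the summed level was 56162 to 56608 CPM against 18524 to 18873 CPM. FOS stood at 11626 and 11366 CPM against 1439 and 1438 CPM. jdp2b (JDP2), a dimer partner of the AP-1 family, stood at 6776 and 6871 CPM against 286 and 303 CPM, and CEBPD, an acute-phase factor, at 2232 and 2155 CPM against 60.7 and 62.7 CPM. The activity-dependent neuronal factor npas4a (NPAS4) went the other way, at 98.6 and 91 CPM against 1082 and 1086 CPM, as did DUSP5, a phosphatase of ERK, at -1.96 ± 0.06, and EGR3 at -1.88 ± 0.10.

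Zebrafish keep many genes in duplicate, and for 18 human symbols of the lists paralogues at a mean of 5 CPM or more in at least 1 fraction were called in opposite directions, of which 17 are described here. With no minimum level there were 29 such symbols. Symbols with more than 1 gene tested were not counted, so neither count has a share. As 32.4% of all genes were higher and 34.3% lower, opposite calls are no finding about duplicates as a class. The sodium-potassium pump's beta subunit genes atp1b1a and atp1b1b differed by 1.22 ± 0.04 and -3.51 ± 0.06. The enolase genes eno1b and eno1a differed by 4.39 ± 0.06 and -0.59 ± 0.04, eno1a standing at 482 and 463 CPM against 709 and 713 CPM. aldocb and aldoca (ALDOC), aldolase genes, differed by 0.67 ± 0.04 and -3.88 ± 0.10. In stmn1a and stmn1b the differences were 1.26 ± 0.10 and -1.61 ± 0.03, and in slc6a1b and slc6a1a, GABA transporters, 1.13 ± 0.04 and -1.73 ± 0.07. sox9a and sox9b differed by 3.09 ± 0.28 and -0.91 ± 0.14, as given above. The claudins of CLDN5, which seal the blood-brain barrier, differed by 1.93 ± 0.23 on chromosome 8 and -1.24 ± 0.26 on chromosome 10. The neuropilins of NRP2, co-receptors for semaphorins, differed by 1.59 ± 0.10 on chromosome 9 and -1.10 ± 0.13 on chromosome 1. grm2b and its paralogue on chromosome 6 differed by 2.78 ± 0.07 and -1.13 ± 0.20. The Iroquois genes of regional patterning differed by 1.52 ± 0.17 and -2.31 ± 0.19 for IRX1 on chromosomes 16 and 19, and by 1.58 ± 0.10 and -1.28 ± 0.32 for IRX3 on chromosomes 7 and 25. The IGF-binding genes of IGFBP5 differed by 1.54 ± 0.09 on chromosome 9 and -3.02 ± 0.34 on chromosome 6. The triosephosphate isomerases tpi1a and tpi1b differed by 2.401 ± 0.12 and -0.25 ± 0.04. For PCDH18, FZD8, RBPJ and SEMA3F 1 or both of the calls ended in some setting. The call of RBPJ on chromosome 1 (0.74 ± 0.16), which encodes the DNA-binding partner of Notch, ended under library totals (0.30), and so did those of SEMA3F on chromosome 11 (0.47) and PCDH18 on chromosome 1 (0.21). FZD8 on chromosome 2 (-1.10 ± 0.30) did not pass without IL4 GFP-positive replicate 2 (-0.69). Reads that fit both copies could have been dropped or split, which the sources used here do not say.

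**Figure D4:**
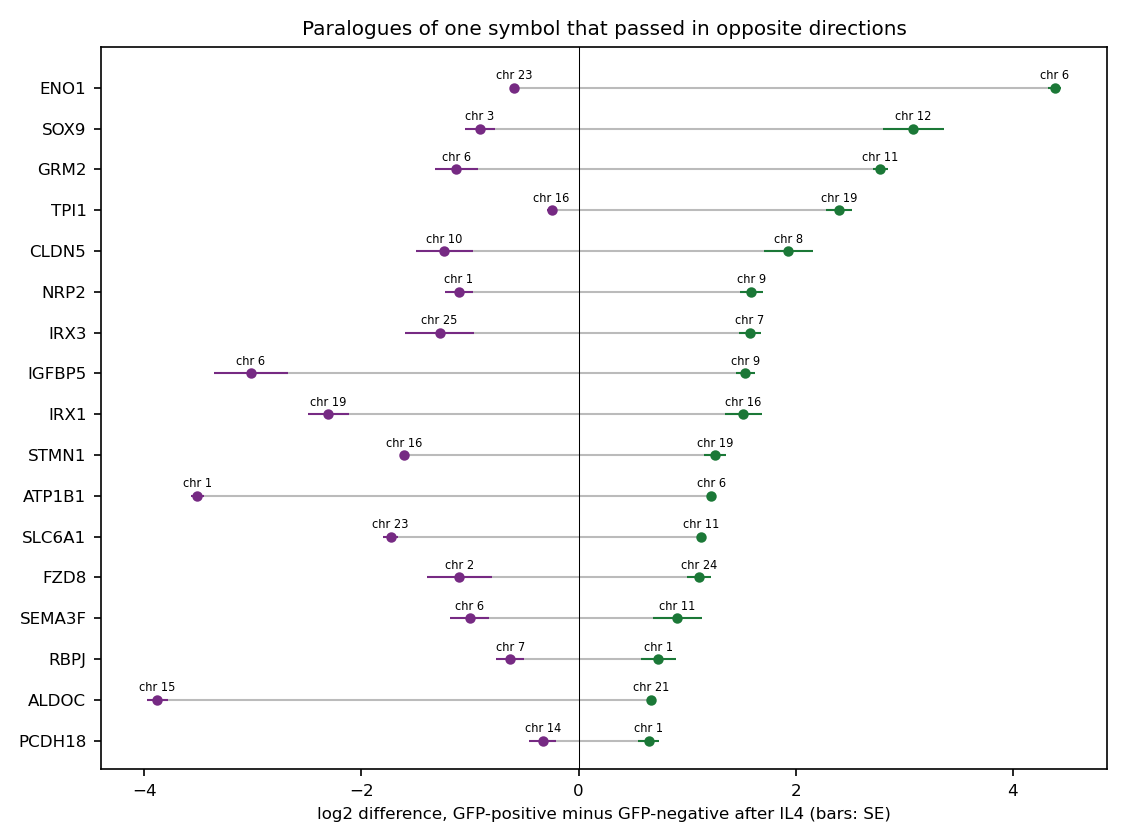
Paralogues that share a human symbol and were called in opposite directions after IL4, each at a mean of 5 CPM or more in at least 1 fraction (rows, 17 of 18 symbols; x axis, log2 difference of GFP-positive minus GFP-negative; points, estimates; bars, SE, 2 libraries on each side; labels, chromosome). Each symbol has a gene on either side of 0, ENO1 running from -0.59 ± 0.04 to 4.39 ± 0.06.

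The sort difference after IL4 was set against that after PBS, with which it shares no library. After PBS 71.7% of genes passed, 6.82% being at least 4-fold higher and 17.9% at least 4-fold lower. Of the genes at least 4-fold higher after IL4, 1089 also met that rule after PBS, which is 68.8% of the 1582 after IL4 and 77.9% of the 1398 after PBS. Of the genes at least 4-fold lower, 2638 met it after both, 84.6% of 3119 and 72.0% of 3662. Differences of opposite sign that both passed were rare, with 154 genes higher after IL4 and lower after PBS and 62 the other way.

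The difference of the differences was tested as an interaction. Such a shift can come from either fraction, so levels after PBS are given for most of the genes named, and levels of 1 fraction were not tested between IL4 and PBS. The sort difference shifted towards GFP-positive cells after IL4 in 2355 genes (11.5%) and towards GFP-negative cells in 1488 (7.26%), and by at least 4-fold in 283 (1.38%) and 83 (0.405%). The balance between directions depended on the scaling. Of genes that passed, 61.3% shifted towards GFP-positive cells with TMM, but 51.2% with RLE factors (1941 and 1850 genes) and 50.6% in DESeq2 (1724 and 1680 genes). The share was 67.8% with library totals (2623 and 1244 genes), 61.6% with no filter, 61.5% with the replicate number as a block and 60.8% in limma-voom. It lay at 49.6% to 51.2% without any 1 of the PBS GFP-positive or IL4 GFP-positive libraries. Without any 1 of the GFP-negative libraries it lay at 59.5% to 63.0%. Without IL4 GFP-negative replicate 1 or 2 the counts fell to 1568 and 947, or 1654 and 985.

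The sort differences of radial glial markers more often shifted towards GFP-negative cells after IL4. Of 24 tested, 13 shifted towards GFP-negative cells and 5 towards GFP-positive cells, 14 and 5 with RLE factors. The 13 include her4.1 to her4.5, near-identical copies that describe the gate and may share reads, so they are not separate markers. The 13 also include sox9b, whose sort difference went from -0.03 ± 0.14 after PBS, which did not pass, to -0.91 ± 0.14 after IL4. The shift was -0.53 ± 0.09 for her4.1, -0.62 ± 0.11 for her15.1 and -1.14 ± 0.14 for nes. her4.1 stood at 1377 and 1316 CPM against 9.27 and 9.24 CPM after PBS, above its level after IL4 in the positive libraries. nes stood at 92.6 and 81.3 CPM against 16.9 and 17.5 CPM after PBS and at 84 and 82.8 CPM against 32.9 and 39.6 CPM after IL4, the higher level after IL4 lying in the negative libraries. The sort differences of mfge8a, slc1a3b and GJA1 shifted by 1.09 ± 0.07, 0.98 ± 0.11 and 0.54 ± 0.06. mfge8a went from 1478 and 1454 CPM against 49.8 and 51.3 CPM after PBS to 922 and 907 CPM against 13.9 and 15.6 CPM after IL4, and GJA1 stood at 3244 and 3242 CPM against 71.5 and 76.1 CPM after PBS. Both were lower after IL4 in both fractions, by the larger factor in the negative one. slc1a3b went from 540.3 and 580.1 CPM against 27 and 21.6 CPM to 706 and 692 CPM against 14.4 and 16.4 CPM, higher in the positive libraries and lower in the negative ones. her4.1 drives the reporter, and the part of its own shift in these counts was not tested.

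In several lists the called shifts were mostly towards GFP-positive cells, against 11.5% of all genes that shifted that way and 7.26% that shifted away. With RLE factors 1941 genes shifted that way and 1850 away. Other lists leaned away or were nearly even. SOX genes gave 4 towards and 8 away of 22, and neuropeptide genes 3 and 8 of 38. Immediate early and stress genes gave 12 and 15 of 41, and Notch genes 9 and 10 of 39. Of 67 axon guidance genes 24 shifted towards GFP-positive cells and 1 away (19 and 1 with RLE factors), among them epha2a, an Eph receptor, by 2.01 ± 0.29 (adjusted p = 6.1e-05). Of 53 Wnt genes 16 shifted that way and 1 away (14 and 1 with RLE factors), and of 51 matrix genes 19 and 7 (17 and 7). Growth factor genes gave 15 and 3 of 38 (15 and 3 with RLE factors), PTN shifting by 0.98 ± 0.11, from 374 and 362 CPM against 16.3 and 15.5 CPM after PBS to 286 and 267 CPM against 6.15 and 5.93 CPM after IL4, lower in both fractions. Cell cycle genes gave 12 and 2 of 53 (9 and 3 with RLE factors), the helicase genes MCM5 and MCM2 shifting by 1.74 ± 0.24 and 1.27 ± 0.16 and CCND1 by 1.13 ± 0.15. CCND1 went from 76.6 and 87.4 CPM against 13.1 and 14.3 CPM after PBS to 121 and 130.5 CPM against 10.6 and 8.53 CPM after IL4. In all 3 the levels after IL4 were higher in the positive libraries and lower in the negative ones.

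Of 26 genes of the IL4 pathway 7 shifted towards GFP-positive cells and 2 away (5 and 2 with RLE factors). The receptor gene il4r.1 stood at 13.9 and 15.6 CPM against 31.3 and 32.7 CPM after PBS and at 15.9 and 16.8 CPM against 9.62 and 9.63 CPM after IL4, a shift of 1.88 ± 0.19 (adjusted p = 8.01e-07). stat6, the transcription factor of the pathway, stood at 6.72 and 8.26 CPM against 18 and 16 CPM after PBS and at 11.8 and 9.77 CPM against 8.27 and 7.52 CPM after IL4, a shift of 1.64 ± 0.26 (adjusted p = 0.000121). In both the negative libraries of the PBS brains were the highest of the 8, and the sort difference of il4r.1 changed sign and passed both times. That of stat6 after IL4 (0.45 ± 0.18) did not pass with RLE factors (0.42), with library totals (0.01), with no filter (0.43), in DESeq2 (0.42) or without PBS GFP-negative replicate 1, either IL4 GFP-negative replicate or IL4 GFP-positive replicate 1 (0.32 to 0.52). il13ra1 stood at 54 and 49.5 CPM against 43.1 and 49.2 CPM after PBS and shifted by 1.52 ± 0.14 (adjusted p = 1.33e-07). socs3b stood at 217 and 216 CPM against 68 and 66 CPM after PBS and shifted by 1.17 ± 0.08 (adjusted p = 3.22e-09). In il13ra1 and socs3b the positive libraries of the IL4 brains were the highest of the 8, and the negative ones were lower after IL4 than after PBS. The other way, the kinase gene jak3 stood at 1.19 and 0.837 CPM against 7.30 and 5.83 CPM after PBS and at 0.164 and 0.110 CPM against 4.71 and 4.35 CPM after IL4, a shift of -2.31 ± 0.66. The cytokine gene il13 stood at 1.97 and 1.57 CPM against 17.5 and 17.4 CPM after PBS and at 0.492 and 0.166 CPM against 11.5 and 9.54 CPM after IL4, a shift of -1.68 ± 0.49. Both were lower after IL4 in both fractions. Both shifts missed the threshold in limma-voom (-2.14 and -1.76) and without PBS GFP-positive replicate 1, IL4 GFP-negative replicate 1 or IL4 GFP-positive replicate 2 (-2.24 to -2.10 for jak3 and -1.58 to -1.19 for il13), and that of jak3 also without PBS GFP-negative replicate 2 (-2.15).

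Markers of other cells shifted as well. Of 23 microglial genes 13 shifted towards GFP-positive cells and 0 away (12 and 0 with RLE factors), apoeb by 0.49 ± 0.06 and csf1rb by 1.997 ± 0.51. apoeb went from 466 and 454 CPM against 3813 and 3857 CPM after PBS to 136 and 125 CPM against 792 and 754 CPM after IL4, lower in both fractions. csf1rb went from 0.366 and 0.941 CPM against 18.9 and 19.9 CPM to 0.710 and 0.663 CPM against 5.09 and 5.36 CPM, lower in the negative libraries, while its positive libraries overlapped. The csf1rb shift did not pass when replicate 1 of the GFP-positive libraries was left out, from PBS (1.36) or from IL4 (1.88). Of 12 oligodendrocyte genes 7 shifted towards GFP-negative cells and 1, cnp, towards GFP-positive cells. plp1b shifted by -0.91 ± 0.04, from 605 and 614 CPM against 4163 and 4179.8 CPM after PBS to 454 and 447 CPM against 5798 and 5772 CPM after IL4. Their part in the other shifts was not tested.

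Single genes with the largest shifts are given with their levels. podxl, a sialomucin of apical membranes, stood at 72.8 and 66 CPM against 8.01 and 9.01 CPM after IL4 and at 37.5 and 36 CPM against 36 and 39.1 CPM after PBS, a shift of 3.06 ± 0.15 (adjusted p = 3.17e-11). MYO18A (chromosome 10), an unconventional myosin, stood at 30.4 and 29.5 CPM against 3.60 and 4.31 CPM and at 10.1 and 9.88 CPM against 10.1 and 8.55 CPM, a shift of 2.81 ± 0.24. aste1a stood at 50.7 and 49.5 CPM against 17.3 and 20.1 CPM and at 33.1 and 39.3 CPM against 98.2 and 85.4 CPM, so that its sort difference changed sign. In the other direction oxt, the precursor of isotocin, stood at 1.31 and 1.601 CPM against 10.05 and 11.2 CPM after IL4 and at 129 and 122 CPM against 45 and 51.7 CPM after PBS, a shift of -4.24 ± 0.20 (adjusted p = 2.02e-11). RGR, a retinal opsin, stood at 13.2 and 17 CPM against 9.88 and 10.8 CPM and at 58 and 63.8 CPM against 8.77 and 5.27 CPM, a shift of -2.57 ± 0.25. krt5, a keratin of epidermis, stood at 5.46 and 8.34 CPM against 353 and 338 CPM and at 20.3 and 14.2 CPM against 114 and 128 CPM, a shift of -2.84 ± 0.19. Among genes whose difference changed sign and passed in both, tnfrsfa, a receptor of the tumour necrosis factor family, stood at 98.6 and 87.7 CPM against 21.7 and 23.7 CPM after IL4 and at 63.4 and 60.2 CPM against 89.5 and 84.9 CPM after PBS, and EPAS1 (chromosome 13), a hypoxia factor, at 72.1 and 81.2 CPM against 33.3 and 29.4 CPM and at 46.5 and 44.4 CPM against 70.3 and 71.5 CPM. These last 2 were chosen after their values were seen.

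**Figure D5:**
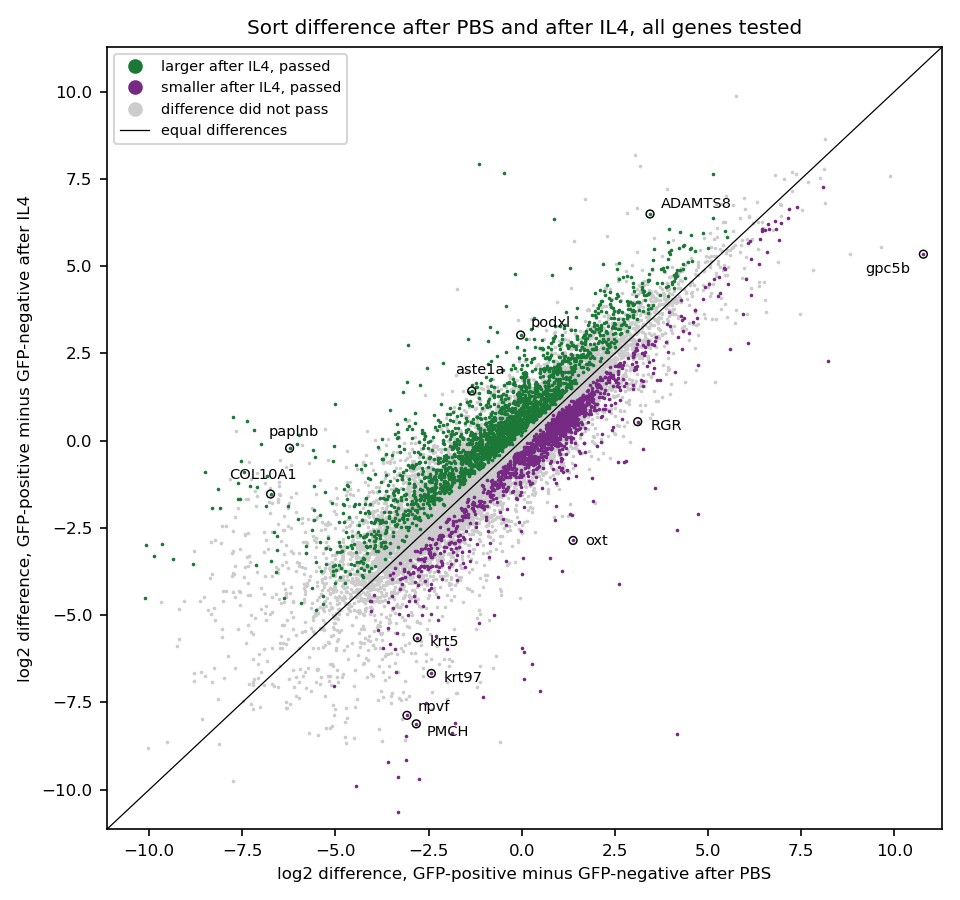
Difference of GFP-positive minus GFP-negative (log2) after PBS (x axis) and after IL4 (y axis) for all 20508 genes tested (points; green and purple where the difference of the differences passed towards GFP-positive or GFP-negative cells, grey where it did not; line, equal differences). Most genes lie along the line, with podxl and oxt among the labelled genes far from it, at shifts of 3.06 ± 0.15 and -4.24 ± 0.20.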

How the data were processed

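Brains of adult zebrafish gave 8 libraries in 4 groups of 2, grouped by their labels. The authors deposited read counts per gene, made with featureCounts on GRCz10 (danRer10) per the submitters' processing notes. The aligner, the strand setting and the treatment of reads that align to several places are not given in the sources used here. The deposited counts summed to 19242851 to 26582271 per library, and at this depth genes with 3 or fewer counts in a fraction are given as ratios with 95% exact counting intervals, or as bounds set at 3 counts over the group, which cover counting error only. The exon length in bases of the authors' table was used for levels per kilobase.

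Differences were tested in R 4.3.3 with edgeR 4.0.16: filterByExpr with a minimum count of 10, TMM factors, and a quasi-likelihood fit (robust) in which each of the 4 groups has its own mean, all 8 libraries entering, with 4 residual degrees of freedom and a common dispersion of 0.00816. P-values were two-sided and adjusted by Benjamini-Hochberg over all 20508 genes. The same code was run on simulated data with 200 changed genes. They were changed evenly in both directions and in the IL4 GFP-positive libraries only. Far fewer genes were changed there than passed here, so that run cannot tell how the scaling behaves in these data. RLE factors and library totals, no filter, DESeq2 1.42.0, limma-voom (limma 3.58.1), the replicate number as a block, the IL4 libraries alone and each library left out were tried. The labels state no pairing of replicate numbers, and deviations from the group means correlated between groups at -0.0106 to 0.00662. These values cannot exclude a pairing, since counting error alone could hide spread that paired libraries share.

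The deposited table names genes by Ensembl ID. A table of gene names gave 25925 of them a symbol and left 5463 without, and RefSeq (GRCz12tu) gave zebrafish names for genes that share one, matched by name and chromosome, with no coordinates taken from it. Of 1282 names asked in 38 lists, 83 had no match, and 1145 of 1222 matched genes were tested. The lists and the genes compared were chosen with earlier results of these data known. Named genes were the 15 with the largest differences in each direction at 10 CPM or more, the 20 of highest level per kilobase in each fraction, up to 4 in each direction of a list at 5 CPM or more with any needed to describe its split, paralogues called in opposite directions, the 15 largest shifts between IL4 and PBS in each direction, and her4.1. A few genes that this rule takes are counted in their lists but are not reported here. Other genes of the IL4 against PBS account were named after their values were seen. Series-level notes on the design that differ from the labels of the libraries were not followed.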

Additional observations from a re-analysis of the deposited data

Results flagged for a closer look

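The difference between the fractions was itself tested between IL4 and PBS, and every value here is that shift on the log2 scale with its SE, 2 libraries a group, from edgeR's quasi-likelihood test. It passed towards GFP-positive cells in 2355 genes and towards GFP-negative cells in 1488.

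In 12 of the 15 genes with the largest shifts towards GFP-positive cells, the 2 PBS GFP-negative libraries were the highest of the 8. COL10A1 (chromosome 20), a collagen gene, shifted by 5.21 ± 0.69, from 0.229 and 1.203 CPM against 75.2 and 72.9 CPM after PBS to 0.546 and 0.552 CPM against 1.57 and 1.63 CPM after IL4. paplnb, a papilin gene, shifted by 6.01 ± 1.84, from 0.0457 and 0.261 CPM against 12 and 11 CPM to 0.0546 and 0.0552 CPM against 0.0848 and 0.0440 CPM. Its fitted value rests on 5 or fewer counts in each library but the PBS GFP-negative ones and depends on the prior count. The other such values were 4.05 ± 0.73 for si:ch211-14a17.10, 3.57 ± 0.94 for ucmaa, 3.12 ± 0.32 for zgc:162144, 3.03 ± 0.42 for the integrin gene itgam.1, 2.94 ± 0.62 for bcl10, 2.73 ± 0.33 for the chemokine scavenger ACKR3 (chromosome 9) and 2.66 ± 0.40 for the collagen gene COL1A1. The trim gene ftr82 shifted by 2.78 ± 0.36, the membrane gene ms4a17a.8 by 2.65 ± 0.27 and aste1a by 2.77 ± 0.15.

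In the other 3 the GFP-positive libraries after IL4 were the highest of the 8. podxl shifted by 3.06 ± 0.15, MYO18A (chromosome 10) by 2.81 ± 0.24 and the protease gene ADAMTS8 (chromosome 5) by 3.05 ± 0.56.

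Among shifts towards GFP-negative cells, neuropeptide genes were oxt at -4.24 ± 0.20, PMCH at -5.28 ± 0.78 and npvf at -4.79 ± 0.72. PMCH and npvf had 1 count in each GFP-positive library after IL4, so these fitted values depend on the prior count. gpc5b, a glypican gene with 0 counts in both PBS GFP-negative libraries, stood at -5.44 ± 1.57, which depends on the prior count likewise. Epithelial genes were krt97 at -4.24 ± 0.56, krt5 at -2.84 ± 0.19 and the claudin gene cldna at -3.29 ± 0.34. The remaining values were -2.57 ± 0.25 for RGR, -2.55 ± 0.48 for the metalloproteinase gene mmp30, -2.54 ± 0.45 for the cofilin-like gene cfl1l, -2.13 ± 0.27 for the glycogen phosphorylase gene PYGL, -2.07 ± 0.51 for the T cell kinase ZAP70, -2.05 ± 0.38 for ESM1 and -2.04 ± 0.07 for si:dkey-200l5.4. GUK1 (chromosome 8) stood at -2.18 ± 0.74 with 1 count in each GFP-positive library after IL4, and did not pass in 12 of the other settings.

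Of genes described in the report, il4r.1 shifted by 1.88 ± 0.19 and stat6 by 1.64 ± 0.26, the PBS GFP-negative libraries being the highest of the 8 in both, while the shifts of jak3 and il13 were -2.31 ± 0.66 and -1.68 ± 0.49 and missed the threshold in 5 and 4 other settings. il13ra1 shifted by 1.52 ± 0.14, socs3b (SOCS3 on chromosome 12) by 1.17 ± 0.08 and epha2a by 2.01 ± 0.29. Cell cycle genes shifted by 1.74 ± 0.24 (MCM5), 1.27 ± 0.16 (MCM2) and 1.13 ± 0.15 (CCND1). The glial genes mfge8a, PTN, slc1a3b (SLC1A3) and GJA1 shifted by 1.09 ± 0.07, 0.98 ± 0.11, 0.98 ± 0.11 and 0.54 ± 0.06, the levels of mfge8a, PTN and GJA1 being lower after IL4 than after PBS in both fractions. nes, her15.1 and her4.1 shifted by -1.14 ± 0.14, -0.62 ± 0.11 and -0.53 ± 0.09, the myelin gene plp1b shifted by -0.91 ± 0.04, and the microglial genes csf1rb and apoeb by 1.997 ± 0.51 and 0.49 ± 0.06. After IL4 apoeb was at 136 and 125 CPM against 792 and 754 CPM and after PBS at 466 and 454 CPM against 3813 and 3857 CPM, and csf1rb at 0.710 and 0.663 CPM against 5.09 and 5.36 CPM and 0.366 and 0.941 CPM against 18.9 and 19.9 CPM.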

How the results depend on the processing

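Results were recomputed with RLE factors, library totals, no filter, DESeq2, limma-voom, the replicate block, the IL4 libraries alone and each of the 8 libraries left out. The interaction has no value from the IL4 libraries alone, where the sort comparison gave 6672 higher and 6998 lower genes. Under library totals 4332 genes were higher, and nccrp1 and JAK2 turned to -0.11 and -0.10, the cause of which was not tested. With a library left out, 1568 to 1934 genes shifted towards GFP-positive cells and 947 to 1964 towards GFP-negative cells. The low ends of 1568 and 947 came without IL4 GFP-negative replicate 1, and 985 without IL4 GFP-negative replicate 2. In the same refits 5848 to 6830 genes were higher and 6185 to 7329 lower. With the replicate block, although the labels state no pairing, 6543 genes were higher and 6946 lower, and 2212 and 1386 shifted towards GFP-positive and GFP-negative cells. Of 332 genes followed in the sort comparison, 16 kept their direction but did not pass in at least 1 setting, and of 50 followed in the interaction, 11 did so.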
